A study of Mus musculus with 3 samples.

Results

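The genes described here move folate into cells and keep it there. They are the folate receptor genes Folr1 and Folr2, the carrier genes Slc19a1, Slc46a1 and Slc25a32, and the polyglutamate enzyme genes Fpgs and Ggh. They were chosen by function and not by measured values, though earlier results of these data were known at the time. These 7 genes were taken from 21883 protein-coding gene records, and each was read within its RefSeq record plus 5000 bp on each side, called its window below. The measurement was MeDIP-seq: an antibody against methylated cytosine pulls down DNA fragments, these are sequenced, and regions rich in them are called as peaks.

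The tissue was epididymal fat. The mice were C57BL/6J males (strain given as C57BL/6 in the sample characteristics), 6 weeks old at the start and 16 weeks old at harvest. For 10 weeks they received a normal diet with 10% of energy as fat (ND), a high-fat diet with 60% (HFD), or that second diet while drinking water with 20 μg/mL folic acid (FAD). There was 1 library per diet, so differences between diets have no replicate check and no test was possible. The number of mice behind a library is not stated in the sources used here, and whole fat holds several cell types, so a change in methylation and a change in cell makeup cannot be told apart.

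Folate is a charged vitamin that does not cross membranes freely. Folate receptors bind it at the cell surface and carry it in by endocytosis, whereas the solute carriers transport it across the plasma, endosomal or mitochondrial membrane. Inside the cell a chain of glutamates is added, which traps folate and makes it a better substrate for the enzymes that build nucleotides and methyl groups. Removal of that chain lets folate leave again.

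The lists differed in length, and this bears on every comparison. Peaks numbered 101532 in ND, 135124 in HFD and 95501 in FAD. They covered 59.6, 89.1 and 49.2 Mb, and their median width was 507, 587 and 447 bp. The lists do not give the read depth. The part of list length in the results was not tested, other than by lists cut to equal length. Each peak carries the authors' score, which runs from 50 upward in all 3 lists and has no stated scale. It is given here, at many peaks with the share of its own list that scored lower. Raw scores of different lists are not on a known common scale. Of 7 adipocyte marker genes, 4, 6 and 5 had a peak in their window in ND, HFD and FAD, of 7 macrophage markers 5, 6 and 5, and of 6 markers of epididymal epithelium 2, 5 and 2. Over all protein-coding genes the shares with a peak were 71.7, 77.9 and 69.1%. A peak is no expression level, so these counts do not check the tissue label.

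Start sites were listed for 4 of the 7 genes. The 250 bases before the first listed start site are printed for Folr2, Slc19a1, Slc46a1 and Fpgs, because none of these promoters overlapped a peak in any library although they differ widely in CG content. Sequences are from RefSeq, build GRCm38.p6, written 5′ to 3′ on the strand of the gene, with each CG dinucleotide, the site that is methylated in mammals, in capitals. They lie at chr7:101857191-101857440 on the minus strand, chr10:77032489-77032738 on the plus strand, chr11:78465451-78465700 on the plus strand and chr2:32694176-32694425 on the minus strand.
Folr2: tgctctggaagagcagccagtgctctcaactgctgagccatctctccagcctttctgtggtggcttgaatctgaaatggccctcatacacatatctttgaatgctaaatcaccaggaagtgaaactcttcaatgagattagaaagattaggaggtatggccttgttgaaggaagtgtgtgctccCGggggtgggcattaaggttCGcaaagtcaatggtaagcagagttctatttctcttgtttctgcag
Slc19a1: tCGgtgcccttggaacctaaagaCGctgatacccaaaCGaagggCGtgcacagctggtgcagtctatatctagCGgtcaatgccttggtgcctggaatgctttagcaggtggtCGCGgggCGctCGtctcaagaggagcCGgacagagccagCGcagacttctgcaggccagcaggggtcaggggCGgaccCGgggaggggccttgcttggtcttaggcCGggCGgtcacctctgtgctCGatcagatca
Slc46a1: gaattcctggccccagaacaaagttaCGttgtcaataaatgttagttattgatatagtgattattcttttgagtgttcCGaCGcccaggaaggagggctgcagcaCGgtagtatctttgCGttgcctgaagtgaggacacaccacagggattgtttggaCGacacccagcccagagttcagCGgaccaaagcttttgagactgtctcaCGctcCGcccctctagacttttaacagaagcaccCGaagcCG
Fpgs: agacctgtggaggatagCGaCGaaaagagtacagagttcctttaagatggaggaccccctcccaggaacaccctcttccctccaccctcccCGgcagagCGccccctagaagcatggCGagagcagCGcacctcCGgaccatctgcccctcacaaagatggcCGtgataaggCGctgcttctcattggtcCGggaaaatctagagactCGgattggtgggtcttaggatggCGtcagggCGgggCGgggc

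The Folr2 stretch holds 2 CG dinucleotides, against 16 for Slc19a1, 11 for Slc46a1 and 14 for Fpgs. In the tabulated windows of 300 bases, which add 50 bases after the start site, the numbers were 3, 19, 14 and 19. Of 17491 protein-coding genes with a listed promoter, 19.2% had fewer CG than Folr2, 50.5% fewer than Slc46a1 and 61.7% fewer than Slc19a1 and Fpgs. CG was searched by its letters, which read the same on both strands, and 94.8% of all promoters hold at least 1. The nearest peak to the Fpgs promoter window lay 1278 bp away in ND, 1180 bp in HFD and 1295 bp in FAD. For Slc46a1 these distances were 1647, 1582 and 4216 bp, for Slc19a1 8864, 1294 and 8901 bp, and for Folr2 20849, 14378 and 3453 bp. Both Slc19a1 and Folr2 have another listed start site, and its window held no peak in any library either. The listed Fpgs start site, chr2:32694175 on the minus strand, lies inside the record, which ends at 32704196. No start site nearer to that end was listed, so none was read there.

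A promoter without a peak is the common case in these lists. Over all listed promoters, the share that overlapped a peak was 2.53, 3.33 and 2.09% in ND, HFD and FAD. Among the 3685 promoters with 10 to 19 CG, where Slc19a1, Slc46a1 and Fpgs fall, the shares were 3.77, 4.56 and 3.55%, and among the 4191 with 1 to 4 CG, where Folr2 falls, 2.03, 3.13 and 1.34%. These groups go by the first listed start site. The other listed site held 5 CG at Folr2, within the group of 5 to 9, and 21 CG at Slc19a1, within the group of 20 or more.

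**Figure D1:**
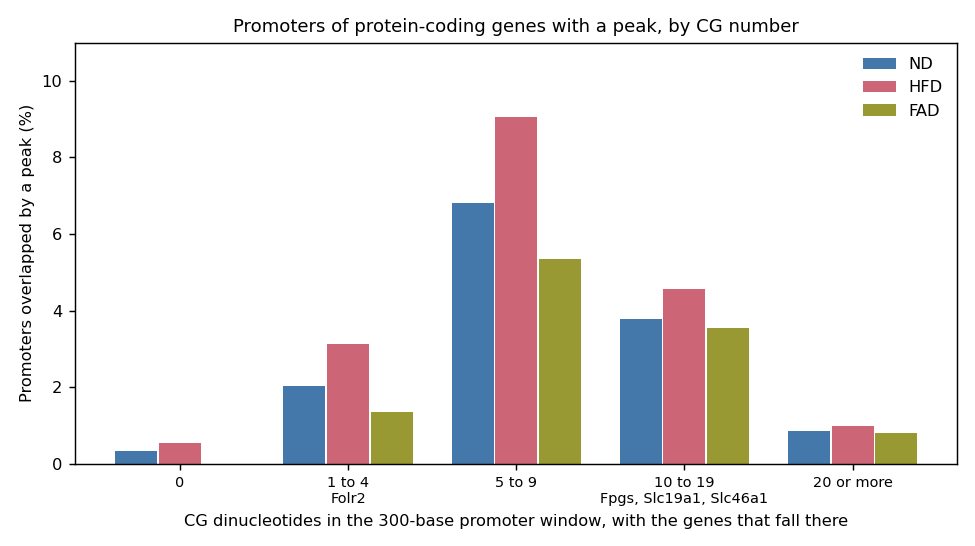
Share of promoters of protein-coding genes overlapped by a peak (y axis, percent) by the number of CG dinucleotides in the 300-base promoter window (x axis), with 1 bar per library. The shares peak among promoters with 5 to 9 CG at 6.81% in ND, 9.07% in HFD and 5.35% in FAD. By their first listed start site, the 4 genes with such a site fall in the groups named under the axis.

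Together the 7 windows held 12 ND peaks, 13 HFD peaks and 12 FAD peaks, which joined into 18 regions when peaks that overlapped across libraries were merged. ND had a peak at 4 of the 7 genes, HFD at 6 and FAD at 7, where 71.7, 77.9 and 69.1% of all protein-coding genes had one. Of the merged regions, 7 had a peak in every library, 3 had a peak in a pair of libraries, and 8 had a peak in 1 library. Slc19a1 and Fpgs held 6 of the 7 regions common to all diets and Slc46a1 the other one. Of the 18 regions, 7 lay inside a member's record, and the other 11 lay in the flanks, several of them in a neighbouring gene. Exons and introns were not analysed here.

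**Figure D2:**
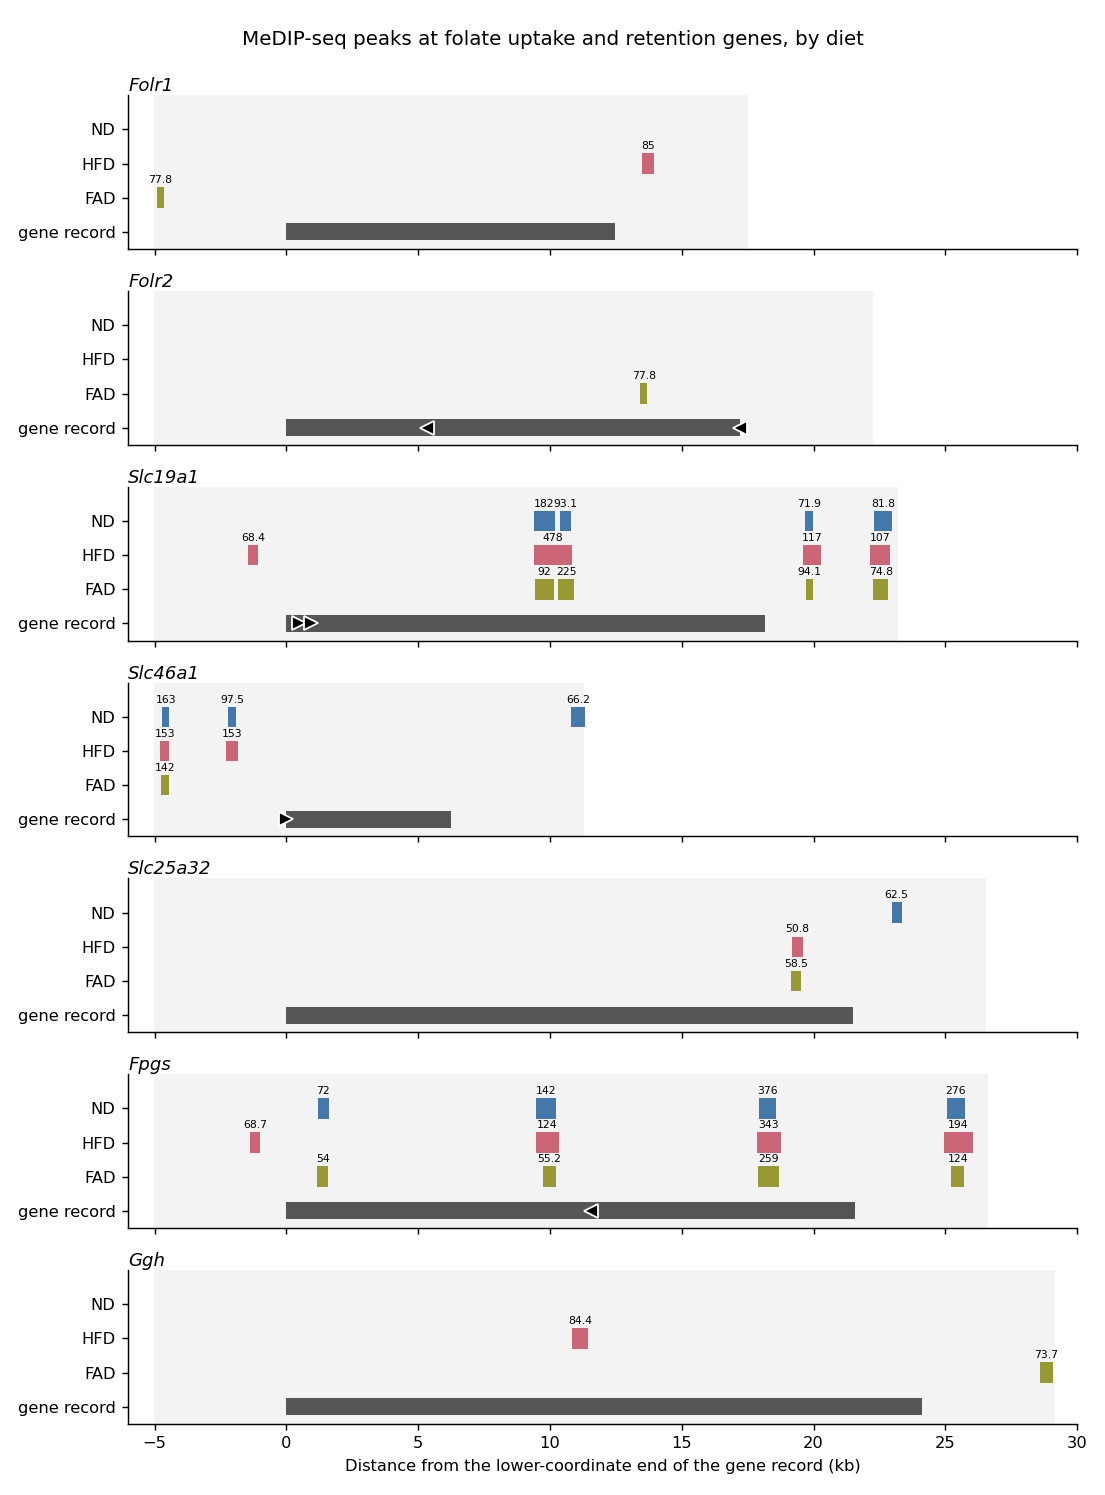
Peaks (coloured bars, with the authors' score above each) in the ND, HFD and FAD libraries at the 7 genes, by distance in kb from the lower-coordinate end of the gene record (dark bar). Grey shading marks the window with 5000 bp on each side and triangles mark listed start sites, pointing in the direction of transcription. Slc19a1 and Fpgs hold 4 peaks in each library, and Folr1, Folr2 and Ggh hold none in ND.

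Folr1 encodes folate receptor alpha and Folr2 folate receptor beta, a form known from macrophages. The genes are neighbours on chromosome 7, and both windows were nearly empty. ND had no peak in either window. HFD had 1 peak at Folr1 and none at Folr2, while FAD had 1 peak that fell in both windows, so the receptors share that observation.

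The HFD peak at Folr1 (chr7:101871819-101872271, 453 bp, score 85.0, above 40.0% of its list) lay 1030 bp beyond the record, in the non-coding gene Gm35597. The nearest ND peak was 6018 bp from it and the nearest FAD peak 18131 bp. The FAD peak (chr7:101853413-101853687, 275 bp, score 77.8, above 33.5% of its list) lay inside the Folr2 record, with its middle 3640 bp downstream of the first listed start site. The nearest HFD peak was 18131 bp away and the nearest ND peak 23102 bp. It was narrow, below the 286 bp under which the narrowest decile of that list lies. Thus HFD and FAD each had a weak peak at the receptor pair, at different places.

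Slc19a1 encodes the reduced folate carrier, the main route of folate into most cells. It was among the most densely covered genes: peaks took up 7.87% of its window in ND, 11.6% in HFD and 7.79% in FAD, more than in 93.0, 93.5 and 95.7% of protein-coding genes. Each library had 4 peaks. The widest region, chr10:77041653-77043181, lay inside the record with its middle 9678 bp downstream of the first start site. In HFD it was 1 peak of 1445 bp with score 478, above 97.2% of the list. In ND it was split into peaks of 815 and 429 bp with scores of 182 and 93.1, and in FAD into peaks of 746 and 604 bp with scores of 92.0 and 225. The same stretch was thus called in all 3 libraries, as 1 peak in HFD and as a pair in the others.

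Beyond the upper end of the Slc19a1 record, 2 more regions were present on every diet, both within the record of the collagen gene Col18a1. The first, chr10:77051866-77052560, spanned 290 bp in ND, 695 bp in HFD and 255 bp in FAD. Its scores were 71.9, 117 and 94.1, above 26.6, 58.7 and 48.2% of their lists. The second, chr10:77054423-77055241, spanned 683, 751 and 589 bp, with scores of 81.8, 107 and 74.8, above 36.1, 53.8 and 30.6% of their lists. HFD also had a peak of its own 1074 bp below the record (chr10:77030826-77031194, 369 bp, score 68.4, above 24.4% of its list), with its middle 1729 bp upstream of the first start site and the nearest ND and FAD peaks 10458 and 10495 bp away.

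Slc46a1 encodes the proton-coupled folate transporter, which takes up folate in the gut and works at acid pH. No peak overlapped its record in any library, and its flanks held 3 peaks in ND, 2 in HFD and 1 in FAD. Coverage of the window was 6.67% in ND, 4.90% in HFD and 1.88% in FAD. This was the 1 member whose coverage was higher in ND than in HFD.

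The region common to all diets lay 4441 bp below the record (chr11:78460920-78461259), with widths of 282, 331 and 306 bp in ND, HFD and FAD. Its scores were 163, 153 and 142, above 74.5, 71.1 and 71.3% of their lists. A region nearer to the gene, chr11:78463404-78463868, with its middle 2065 bp upstream of the start site, had an ND peak (339 bp, score 97.5) and an HFD peak (465 bp, score 153), and the nearest FAD peak was 2169 bp away. The last, chr11:78476483-78477032 (score 66.2, above 20.1% of its list), was present in ND, inside the neighbouring gene Sarm1, with the nearest HFD and FAD peaks 4988 and 5975 bp away. It crossed the edge of the window.

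Slc25a32 encodes the mitochondrial folate carrier. Each library had 1 weak peak, and the place differed. HFD (451 bp, score 50.8) and FAD (385 bp, score 58.5) shared a region inside the upper part of the record, chr15:39110387-39110848. The ND peak (chr15:39114204-39114568, 365 bp, score 62.5) lay 1483 bp above the record, within Dcaf13, and 3355 bp from the HFD peak. These peaks stood above 1.20% of the HFD list, 10.3% of the FAD list and 15.6% of the ND list. The HFD peak was close to the lowest score in the list.

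Fpgs encodes folylpolyglutamate synthase, which adds the glutamates that retain folate in the cell. Like Slc19a1 it was densely covered, with 4 peaks in each library taking up 7.97% of the window in ND, 10.3% in HFD and 6.89% in FAD, more than in 93.2, 90.8 and 93.9% of protein-coding genes. The highest-scoring region, chr2:32700456-32701369, had peaks of 645, 914 and 793 bp with scores of 376, 343 and 259 in ND, HFD and FAD, each above at least 90.5% of its list. Its middle lay 6737 bp upstream of the listed start site, still inside the record, which extends beyond that site.

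A second Fpgs region common to all diets, chr2:32692085-32692945, had its middle 1660 bp downstream of that start site. Its scores were 142 in ND and 124 in HFD, above 68.5 and 61.4% of their lists, and 55.2 in FAD, above 6.30% of its list. Another, chr2:32707564-32708652, lay in Cdk9, the gene of a kinase of transcription elongation. Its scores of 276, 194 and 124 stood above 89.7, 79.9 and 65.0% of their lists. The last record region, chr2:32683778-32684224, had a peak in ND (438 bp, score 72.0) and FAD (416 bp, score 54.0), while the nearest HFD peak (chr2:32681215-32681619, 405 bp, score 68.7) lay 2158 bp away, in the endoglin gene Eng.

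Ggh encodes gamma-glutamyl hydrolase, the lysosomal enzyme that removes the glutamate chain. ND had no peak in the window, and its nearest peak lay 10481 bp from the record. HFD had a peak inside the record (chr4:20052845-20053450, 606 bp, score 84.4, above 39.6% of its list), with the nearest FAD and ND peaks 17148 and 23142 bp away. FAD had a peak 4487 bp above the record (chr4:20070599-20071078, 480 bp, score 73.7, above 29.5% of its list), with the nearest HFD peak 5493 bp away. As at the receptors, the HFD and FAD peaks were weak and lay at different places.

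The window limit of 5000 bp decides some of these entries. The farthest peaks inside it began 4643 bp (FAD at Folr1), 4537 bp (ND at Slc46a1), 4487 bp (FAD at Ggh) and 4441 bp (the common Slc46a1 region) from a record. The nearest peaks outside lay 7309 bp (HFD at Slc25a32, score 54.9) and 7501 bp (ND at Folr1, score 52.5) from it. With windows of 2000 bp, FAD had a peak at 4 of the 7 genes in place of 7.

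**Figure D3:**
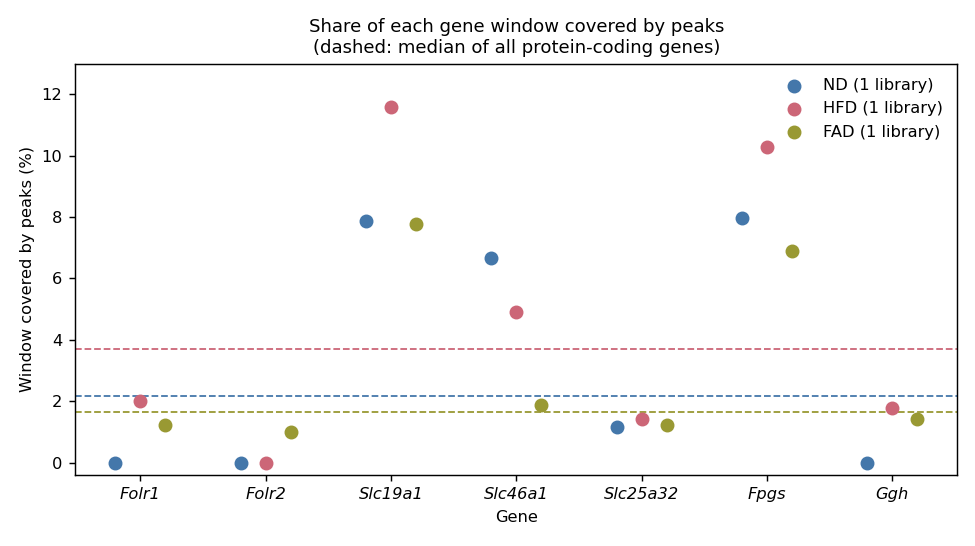
Percent of each gene window covered by peaks (y axis) for the 7 genes (x axis), with 1 point per library and dashed lines at the median of all protein-coding genes in that library. Slc19a1, Fpgs and Slc46a1 lie above the medians in every library, and Folr1, Folr2, Slc25a32 and Ggh lie below them.

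The genes thus fell into 3 levels of coverage. Slc19a1 and Fpgs were high on every diet, Slc46a1 exceeded 89.0% of genes in ND, 61.2% in HFD and 53.9% in FAD, and Folr1, Folr2, Slc25a32 and Ggh were at or below 2.02% everywhere. Over the 7 genes the median coverage was 1.16% in ND, 2.02% in HFD and 1.41% in FAD, against 2.17, 3.70 and 1.65% over all protein-coding genes. The median record length was 18164 bp among the 7 and 17170 bp among all.

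The first comparison, HFD with ND, sets the high-fat diet beside the normal one. At Folr1 and Ggh a peak was called in HFD but not in ND, and no member showed the reverse. Over all protein-coding genes the first pattern held for 8.23% and the reverse for 1.97%. Both calls end with the best-scoring 50% of peaks, the Folr1 call also ends with windows of 10000 bp, and with lists of equal length Slc25a32 showed the reverse. Covered bases were at least 1.5-fold higher in HFD at 2 of the 6 members with a peak in either library, again Folr1 and Ggh, where 53.9% of all protein-coding genes with a peak in either library reached that fold. A window without a peak in the other library counts as past the fold. At Fpgs they went from 2518 to 3269 and at Slc19a1 from 2217 to 3260, both under the fold. No member reached it in the direction of ND, against 4.63% of those genes.

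Counted by peaks, 5 of 13 HFD peaks (38.5%, Wilson 95% interval 17.7 to 64.5%) overlapped no ND peak, 1 each at Folr1, Slc19a1, Slc25a32, Fpgs and Ggh. Over the windows of all protein-coding genes this share was 39.3%, close to that of the members. In reverse, 3 of 12 ND peaks (25.0%, 8.89 to 53.2%) overlapped no HFD peak, at Slc46a1, Slc25a32 and Fpgs, against 15.7% over all genes. With lists of equal length the 5 fell to 2, because HFD peaks scoring under 73.2 dropped out and those at Slc19a1, Slc25a32 and Fpgs scored lower. With a reciprocal overlap of 50% in place of 1 bp, the 3 rose to 5.

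The second comparison, FAD with HFD, sets folic acid beside the same diet without it. At Folr2 a peak was called in FAD but not in HFD, and no member showed the reverse. The shares of all genes were 1.64 and 10.5%. The call ends with windows of 10000 bp and with the best-scoring 50% of peaks, and with lists of equal length Slc25a32 joined it. With windows of 2000 bp, 3 members (Folr1, Slc46a1 and Ggh) showed the reverse. Covered bases were at least 1.5-fold higher in HFD at 3 of 7 members, Folr1 (453 against 275), Slc46a1 (796 against 306) and Fpgs (3269 against 2177), where 71.8% of all protein-coding genes with a peak in either library reached that fold. They were higher by that fold in FAD at Folr2, against 3.13% of those genes, and the call rests on the narrow peak of 275 bp.

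Of the 12 FAD peaks, 3 (25.0%, Wilson 95% interval 8.89 to 53.2%) overlapped no HFD peak, namely those at the receptors, Fpgs and Ggh, against 14.2% over all genes. In the other direction 5 of 13 HFD peaks (38.5%, 17.7 to 64.5%) overlapped no FAD peak, at Folr1, Slc19a1, Slc46a1, Fpgs and Ggh, against 43.4%. With lists of equal length the 5 fell to 3, and with a reciprocal overlap of 50% the 3 rose to 6. The intervals cover counting error over peaks only. They treat peaks as independent, although Slc19a1 and Fpgs held 4 each in every library. They include the share of all genes, but they are so wide that this decides nothing.

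The last comparison, FAD with ND, sets the high-fat diet with folic acid beside the normal diet. Folr1, Folr2 and Ggh had a peak in FAD and none in ND, where 4.16% of all protein-coding genes did. With the best-scoring 50% of peaks all 3 calls end, with windows of 10000 bp only Ggh is called, and with windows of 2000 bp only Folr2. The 3 calls rest on 2 peaks, since the receptors share one, and they scored 77.8 and 73.7. No member had the reverse, against 6.76% of genes, but with windows of 2000 bp Slc46a1 did. Covered bases were at least 1.5-fold higher in FAD at the same 3 members of 7, against 11.9% of protein-coding genes with a peak in either library, and higher in ND at Slc46a1, against 33.8%.

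Among peaks, 3 of 12 in FAD overlapped no ND peak (25.0%, Wilson 95% interval 8.89 to 53.2%, against 26.2% over all genes), at the receptors, Slc25a32 and Ggh. In ND, 3 of 12 overlapped no FAD peak (25.0%, 8.89 to 53.2%, against 32.5%), a pair of them at Slc46a1 and the other at Slc25a32. The 3 comparisons share libraries and are not independent of each other.

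**Figure D4:**
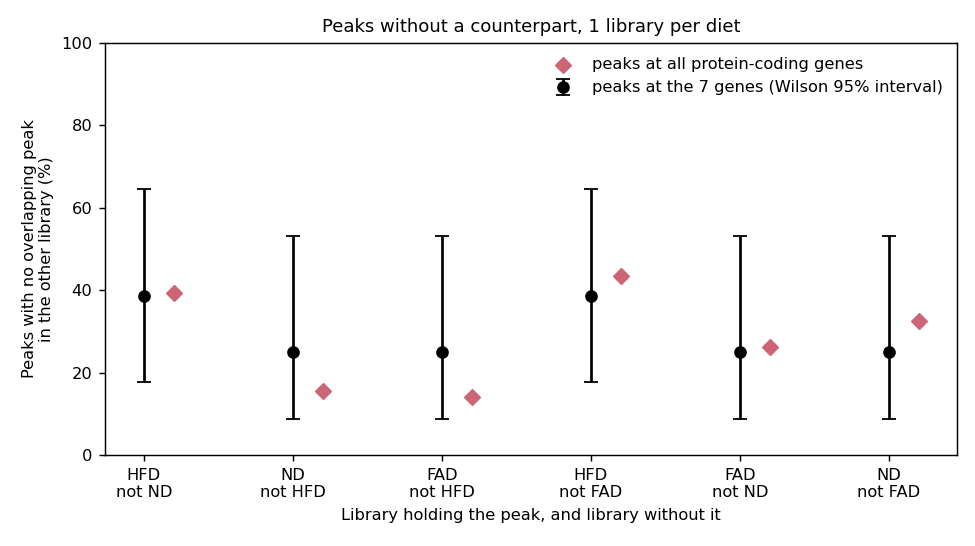
Percent of peaks with no overlapping peak in the other library (y axis) for the 6 directions between 3 libraries (x axis), at the 7 genes (black points with Wilson 95% intervals) and over all protein-coding genes (red diamonds). Every interval at the 7 genes contains the value over all genes, but the intervals are wide and treat peaks as independent, so this is no test.

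Peak width was compared at the 6 member regions with exactly 1 peak in each library, at Slc19a1, Slc46a1 and Fpgs. The HFD peak was the widest at 6 of the 6, where this held at 72.3% of 31544 such regions near protein-coding genes. The FAD peak was the narrowest at 4 of 6, against 66.7%. The median ratio of HFD to ND width was 1.30 at the members and 1.19 over all regions, and that of FAD to HFD width was 0.667 and 0.729. HFD peaks were thus wider and FAD peaks narrower in most regions of either set.

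Other genes of the pathway were read in the same way. All 6 genes of ATP-binding cassette transporters that export folate (Abcc1 to Abcc5 and Abcg2) had a peak in every library. Of all protein-coding genes, 71.7% had one in ND, 77.9% in HFD and 69.1% in FAD. The 6 records are long, from 49723 bp (Abcc3) to 225165 bp (Abcc4), against a median of 17170 bp over all genes. The part of length in this count was not tested. Median coverage of the 6 genes was 2.70% in ND, 4.01% in HFD and 2.09% in FAD. Covered bases were at least 1.5-fold higher in HFD than in ND at 5 of 6 and higher in HFD than in FAD at 6 of 6, where 53.9 and 71.8% of all protein-coding genes with a peak in either library were. Abcc4 was the most densely covered of these, at 8.69, 13.4 and 6.56%.

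Of 20 genes of the folate cycle, each library had a peak at 18, beside 71.7% of all protein-coding genes in ND, 77.9% in HFD and 69.1% in FAD. These records run from 5322 bp (Shmt2) to 194190 bp (Mthfd1l), against a median of 17170 bp over all genes. The part of length was not tested here either. Covered bases were at least 1.5-fold higher in HFD than in ND at 8 of the 20 and higher in HFD than in FAD at 13, beside the same 53.9 and 71.8%. They were higher by that fold in ND than in FAD at 7, beside 33.8%, and in ND than in HFD at 0, beside 4.63%. Amt, a gene of the glycine cleavage system, had 2 ND peaks and 3 HFD peaks and none in FAD, whose nearest peak lay 17650 bp from the record. Mthfs, the gene of methenyltetrahydrofolate synthetase, had 1 FAD peak (score 65.2) and none in ND or HFD, whose nearest peaks lay 22441 and 22367 bp away. Over all protein-coding genes, a peak in HFD and none in FAD held for 10.5%, and the reverse for 1.64%.

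Among these pathway genes, together with those of cobalamin uptake and paralogs of the carriers, the gene nearest to each member in coverage over the 3 libraries was found by the sum of absolute differences in percentage points. Slc19a1 and Fpgs were nearest to each other among 47 genes (2.22 points), as were Folr1 and Ggh (0.423 points). Folr2 was nearest to Mthfs (0.171), Slc25a32 to the thiamine transporter gene Slc19a3 (1.14) and Slc46a1 to the cobalamin transporter gene Abcd4 (3.46). With 3 libraries, this measure describes levels and carries no test.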

How the data were processed

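MeDIP-seq peak lists of 3 libraries, 1 per diet, were used, with groups taken from the labels. The authors called and deposited peaks separately for each library. Per the submitters' processing notes the build was mm10, and the names of the peaks point to MACS as the caller. Nothing more of the calling (version, settings, control), alignment or depth is given in the sources used here, so a missing peak can reflect depth as well as methylation. The score of each peak is the authors' own. Ranks and cuts by score were made within a list only, and scores printed side by side for several libraries were not compared.

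Gene records came from a RefSeq table of GRCm38.p6, the assembly of mm10, on 21 chromosomes, and all 7 members matched. Peaks were assigned to a record plus 5000 bp on each side by an overlap of 1 bp. Peaks were matched between lists by 1 bp, and the fold for covered bases was 1.5. The same counts over all 21883 protein-coding genes stand beside those of the members. Intervals are Wilson 95% intervals. Promoter sequences and start sites came from a RefSeq table of GRCm38.p6, and the first listed site per gene was used for shares.

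All 7 members are named, with at most 3 genes per other list and direction, those with the highest-scoring peak among genes with a peak in 1 library and none in the other, and the 1 gene nearest to each member. Further genes (Abcc4 and those in the closing observations without such a difference) were chosen after their values were seen, as were the CG groups. Some genes of these lists are not reported here by name. Members and lists were chosen with earlier results of these data known. Overlap code was tested on simulated data. On the deposited peaks it gave the call of bedtools in all 664314 comparisons over the 6 directions. Alternatives tried were lists cut to their best-scoring 50% or to equal length, windows of 2000 and 10000 bp, a reciprocal overlap of 50% and joining of peaks within 500 bp. Tools were bedtools 2.31.1 and, under Python 3.11.15, pandas 2.3.3, numpy 2.4.6, matplotlib 3.10.9 and scipy 1.17.1.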

Additional observations from a re-analysis of the deposited data

How the results depend on the processing

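With 1 library per diet, no library could be left out and no paired analysis was possible because no group has a second replicate. Of 51 alternative values of the 9 counts over the members, 40 stayed within 1.5 times the main count. This compares counts only, and the peaks behind a count can differ between settings. With the best-scoring 50% of peaks, ND peaks without an FAD peak numbered 2 in place of 3, and none of the main 3 was among them. With the 50% of peaks with the highest scores, 3 members had a peak in HFD and 3 in FAD, in place of 6 and 7. HFD peaks without an ND peak then numbered 3 in place of 5, and ND peaks without an HFD peak 0 in place of 3. FAD peaks without an HFD peak numbered 0 in place of 3, and FAD peaks without an ND peak 1 in place of 3. None of the main 5 HFD peaks or main 3 FAD peaks without an ND peak scored above the cut. Those counted instead lay at Slc19a1 and Slc46a1 and had lost their ND counterpart to the cut. No member then had a peak in 1 library and none in another, so every such call at Folr1, Folr2 and Ggh ended. With equal-length lists, HFD peaks without an ND peak numbered 2 and those without an FAD peak 3 in place of 5. With windows of 2000 bp, 4 members had a peak in FAD, and 3 had a peak in HFD and none there, in place of 0. With a reciprocal overlap of 50%, ND peaks without an HFD peak numbered 5 and FAD peaks without an HFD peak 6, both in place of 3. With windows of 10000 bp, ND had 1 peak at Folr1 and 1 at Folr2, and HFD 1 at Folr2, which ends the calls of absence there. In ND, HFD and FAD the main setting held 12, 13 and 12 member peaks. High scores only left 5, 8 and 4, windows of 2000 bp left 8, 10 and 8, and equal lengths left 10 in HFD with the others unchanged. Windows of 10000 bp held 16, 17 and 15. The reciprocal overlap kept the same peaks under a stricter match. Further causes of the changes were not tested. Unknown depth limits every statement that a peak was missing.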

Other observations

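Cobalamin, the cofactor that methionine synthase needs to use methyl-folate, has its own uptake genes. Of 9 such genes, ND had a peak at 6, HFD at 7 and FAD at 6, beside 71.7, 77.9 and 69.1% of all protein-coding genes. Tcn2, the gene of the plasma carrier transcobalamin, had 2 peaks in ND (highest score 102), 1 in HFD (75.1) and none in FAD, whose nearest peak lay 8041 bp from the record. The HFD peak lay 3311 bp outside the record. Over all protein-coding genes, 6.76% had a peak in ND and none in FAD, and 10.5% one in HFD and none in FAD. Amn, which encodes a subunit of the intestinal cobalamin receptor, had 1 HFD peak (72.1) and 2 FAD peaks (highest score 117), and ND came no nearer than 6825 bp to the record. The HFD peak lay 4464 bp outside the record, near the window limit, while FAD had a peak overlapping the record. A peak in HFD and none in ND held for 8.23% of all protein-coding genes, and one in FAD and none in ND for 4.16%. Cd320 and Mmadhc had none in any library.

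Of 5 paralogs of the carriers and receptors, 4 had a peak in every library, and Slc46a2 had none. Izumo1r, a folate receptor relative that acts in sperm and egg binding, had 1 ND peak (score 78.9), 2 HFD peaks (highest score 189) and 1 FAD peak (74.1), all in the flanks, at least 3487 bp from the record. Peaks covered 6.70% of the window of Slc46a3 in ND, 8.38% in HFD and 3.31% in FAD.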
